A study of Mus musculus with 9 samples.

Results

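Id1, Id2, Id3, Id4, Hes1, Hes5, Hes6, Hey1 and Heyl encode helix-loop-helix proteins that hold back or modulate neuronal differentiation. They were chosen by name: each is a probe set annotated with that symbol alone, and where a gene had several, the one with the highest mean over the arrays was taken. All 9 were measured, out of 22180 genes. Expression was read on 9 whole-transcript microarrays from the mouse neuroblastoma line N1E-115, which extends neurites on laminin once serum is removed. There were 3 arrays each of cells given Hmgn5 siRNA and collected at 24 h, cells given control siRNA and collected at 24 h, and cells given control siRNA and collected at 4 h. Both siRNAs were used at 80 nM, and the one against Hmgn5, a nucleosome-binding protein, was a pool of several sequences. All 3 groups were starved of serum overnight in Neurobasal medium and replated on laminin, and the labels give these times as differentiation times. The study asked what lowering Hmgn5 changes in differentiating cells. No Hmgn5 siRNA group at 4 h was used here, and all samples come from a single tumour-derived line. Whether the 3 samples of a group were separate cultures is not stated, and the spread that the p-values rest on may therefore be technical.

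The Id proteins lack a DNA-binding region and sequester E proteins, the partners that proneural factors such as the neurogenins need to bind E-boxes. Id genes are known direct targets of bone morphogenetic protein (BMP) signalling. Hes1, Hes5, Hey1 and Heyl are known targets of Notch: the cleaved receptor joins the DNA-binding protein RBPJ and a Mastermind coactivator. Of the repressors this complex induces, HES proteins recruit Groucho corepressors to proneural genes. Hes6 is known to oppose Hes1 and to favour neuronal differentiation.

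Upstream sequences of 3 members are shown because they carry letters linked to those inputs, whose genes were measured on the same arrays. They are the 250 bases before the transcript start from RefSeq (build GRCm38.p6), given 5′ to 3′ in the direction of transcription. In Id2 and Id4 the capitals mark GGCGCC, a GC element of BMP-responsive promoters. In Hes5 they mark TGGGAA, the core that RBPJ binds, on either strand.
Id2, chr12:25096093-25096342, minus strand: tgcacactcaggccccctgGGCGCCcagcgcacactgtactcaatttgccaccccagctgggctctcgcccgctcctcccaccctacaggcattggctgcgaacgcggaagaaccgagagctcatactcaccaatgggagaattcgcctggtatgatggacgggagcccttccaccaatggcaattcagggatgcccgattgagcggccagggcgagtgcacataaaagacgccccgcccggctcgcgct
Id4, chr13:48260866-48261115, plus strand: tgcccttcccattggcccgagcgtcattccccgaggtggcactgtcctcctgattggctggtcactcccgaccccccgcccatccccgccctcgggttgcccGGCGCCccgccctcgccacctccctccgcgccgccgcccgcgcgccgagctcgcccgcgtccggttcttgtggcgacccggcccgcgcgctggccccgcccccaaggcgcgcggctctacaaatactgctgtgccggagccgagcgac
Hes5, chr4:154960673-154960922, plus strand: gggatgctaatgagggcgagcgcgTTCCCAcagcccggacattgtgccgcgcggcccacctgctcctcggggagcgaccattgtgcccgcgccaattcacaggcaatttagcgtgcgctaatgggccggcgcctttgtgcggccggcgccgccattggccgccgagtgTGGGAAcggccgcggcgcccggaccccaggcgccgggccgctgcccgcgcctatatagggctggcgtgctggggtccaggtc
The RefSeq promoter table held windows for 5 of the 9 members, Id2, Id3, Id4, Hes5 and Hes6. GGCGCC, which reads the same on both strands, was found in 9.59% of all 32851 windows of that length, and TGGGAA on either strand in 21.6%. Id2 held GGCGCC once, 231 bases before the start, and Id4 once, at 148. Hes5 held TGGGAA at 226 and 82 bases before the start, and GGCGCC 4 times. Id4 also held TGGGAA once. The E-box CANNTG was in 66.2% of windows, the N-box CACNAG in 36.7% and CACGNG, a box bound by HES and HEY proteins that overlaps the E-box, in 23.5%. Hes6 had 2 windows, with 1 and 3 E-boxes, and the window of Id3 held none of the 5 motifs. These matches describe letters and were not tested as binding sites.

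Hmgn5 checked the siRNA label. Its log2 level was 3.53, 3.45 and 3.50 on the 3 Hmgn5 siRNA arrays, against 4.77, 4.66 and 4.69 on the control arrays at 24 h and 4.53, 4.23 and 4.57 at 4 h. Hmgn5 siRNA gave lower values than either control group on every array. The Hmgn5 signal fell by 1.21 on the log2 scale at 24 h (SE 0.09, limma adjusted p = 0.00367). Background was not estimated, and on its dimmest array Hmgn5 exceeded only 13.8% of probe sets, so no share of transcript left is read from this difference. An exact permutation test of both groups (two-sided) gave p = 0.1, and 3 against 3 cannot give less. The adjusted p was 0.0552 without Hmgn5 siRNA replicate 2, 0.0506 without its replicate 3 and 0.0558 without control 24 h replicate 1. Across probe sets the arrays correlated at 0.978 to 0.995 (Pearson's r), and the array of control 4 h replicate 2 was the least like the rest (array weight 0.198, against 0.789 to 1.74). Against the label, 10 of 11 measured markers of sympathetic neuroblastoma and 11 of 13 neuronal markers were brighter than the median probe set. Of the markers of other cells, 2 of 8 for glia, 5 of 10 for fibroblasts, 1 of 9 for leukocytes and 5 of 10 for endothelium were that bright, and none passed the test in any comparison. The mean log2 level of the glial list lay between 4.83 and 4.93 with Hmgn5 siRNA, 4.88 and 4.95 in 24 h controls and 4.82 and 4.91 in 4 h controls. In bulk RNA, fewer cells of a type and less RNA per cell cannot be told apart.

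With Hmgn5 siRNA at 24 h, none of the 9 members passed the test against control cells. Called means a Benjamini-Hochberg adjusted p under 0.05 over all genes in limma. By that rule 0 of 9 members changed, and 3 of all genes, or 0.0135%, did. At an unadjusted p under 0.05 there were 2 members, Id3 and Heyl, and 1164 genes in all. Differences ran from -0.28 for Heyl to 0.18 for Hes5 on the log2 scale, with 6 above 0 and 3 below. Their median was 0.02, where that of all genes was -0.00. The 95% intervals of the members together spanned -0.53 to 0.50, and each of the 9 intervals lay within 1.5-fold of no difference. The 3 arrays of each group did not overlap for 2 members, Id1 (higher) and Heyl (lower), while 12.3% of all genes had such groups.

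Between 4 h and 24 h in control cells, again 0 of 9 members changed, against a background of 963 genes, or 4.34%. At an unadjusted p under 0.05 there were 4 members and 4000 genes. Member differences, as 24 h minus 4 h, ran from -0.28 for Id2 to 0.29 for Id4. Of these 6 were above 0 and 3 below, with a median of 0.08 where all genes had 0.02. Groups did not overlap for Id4 and Hey1 (higher at 24 h) and Id1 (lower), and in 21.3% of all genes. Intervals spanned -0.55 to 0.52, and adjusted p ran from 0.0934 to 0.955. Both comparisons use the 24 h control arrays, with opposite sign.

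Hmgn5 siRNA cells at 24 h were also set against control cells at 4 h, where siRNA and time differ together. Hey1 rose, and none of the other 8 members was called; 569 of all genes, or 2.57%, were. Groups did not overlap for Id4 and Hey1, both higher, and in 18.9% of all genes. Differences ran from -0.26 for Heyl to 0.31 for Id4, with a median of -0.01 where all genes had 0.01. This comparison shares its arrays with the other two.

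**Figure D1:**
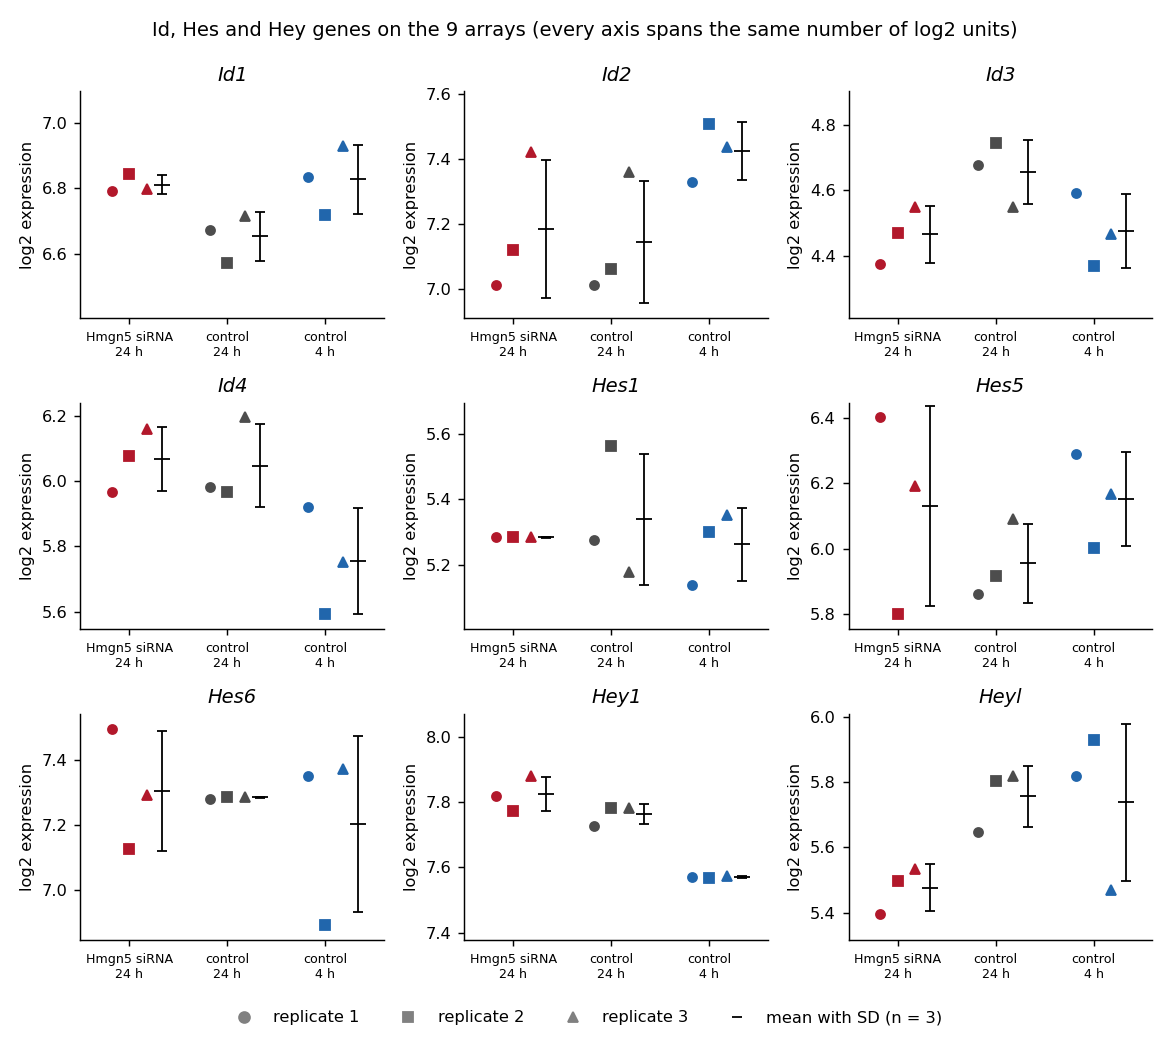
Log2 level of each of the 9 genes on every array, with Hmgn5 siRNA (24 h), 24 h controls and 4 h controls from left to right. Marker shape gives the replicate number, and bars give the mean with its SD (n = 3). Hey1 at 4 h sits in a tight cluster near 7.57, below all 24 h arrays, and Heyl with Hmgn5 siRNA lies below the 24 h controls.

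Id1, an inhibitor of E proteins and a classical BMP target, was at log2 levels of 6.79, 6.84 and 6.80 with Hmgn5 siRNA, against 6.67, 6.57 and 6.72 in control cells at 24 h. All 3 knockdown arrays were above all 3 controls of that time. Control cells at 4 h had 6.84, 6.72 and 6.93, a range that takes in the knockdown values and lies just above the 24 h controls. The knockdown difference was 0.16 (SE 0.07, 95% interval -0.00 to 0.32, adjusted p = 0.950), and the time difference was -0.17 (SE 0.07, interval -0.33 to -0.02, adjusted p = 0.228). Neither was called. With array weights, which count control 4 h replicate 2 for less, the lower level at 24 h passed (adjusted p = 0.0496). The order from high to low was control 4 h, Hmgn5 siRNA 24 h, control 24 h. The Id1 probe set exceeded 67.7% to 70.8% of all probe sets on its arrays.

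Id2, which is expressed in neural crest derivatives and neuroblastoma, had log2 levels of 7.01, 7.12 and 7.42 with Hmgn5 siRNA, against 7.01, 7.06 and 7.36 in control cells at 24 h and 7.33, 7.51 and 7.44 at 4 h. Knockdown and control arrays at 24 h interleaved, and in both groups the array numbered 3 was highest. Their difference was 0.04 (SE 0.12, adjusted p = 0.999). In control cells the 24 h level minus the 4 h level was -0.28 (SE 0.12, interval -0.55 to -0.01, adjusted p = 0.266), with groups that overlapped. Without both arrays numbered 3 at 24 h it was -0.38 (adjusted p = 0.0787), still not called.

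The arrays numbered 3 at 24 h were also the highest in a list of 24 measured proliferation genes. The mean of that list, relative to the 24 h control mean, was 0.02, -0.01 and 0.50 with Hmgn5 siRNA, against -0.10, -0.13 and 0.22 in control cells at 24 h and 0.02, -0.01 and -0.00 at 4 h. In the knockdown comparison 22 of the 24 genes were above 0 with none called, the median being 0.18. The part of proliferation in the levels of Id2 and Id4 was not tested.

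Id3, a further E protein inhibitor and BMP target, exceeded 32.4% to 41.6% of probe sets on its arrays, and background at that level was not estimated. It had log2 levels of 4.37, 4.47 and 4.55 with Hmgn5 siRNA, against 4.68, 4.74 and 4.55 in control cells at 24 h and 4.59, 4.37 and 4.47 at 4 h. The highest knockdown array only reached the lowest 24 h control. The difference at 24 h was -0.19 (SE 0.08, interval -0.38 to -0.01, adjusted p = 0.936). Over time the difference in control cells was 0.18 (adjusted p = 0.283), and Hmgn5 siRNA cells at 24 h differed from 4 h controls by -0.01.

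Id4, which inhibits differentiation in neural precursors, had log2 levels of 5.97, 6.08 and 6.16 with Hmgn5 siRNA, against 5.98, 5.97 and 6.20 in control cells at 24 h and 5.92, 5.59 and 5.75 at 4 h. Every 24 h array of either siRNA lay above every 4 h array, while both 24 h groups overlapped. The level at 24 h exceeded that at 4 h by 0.29 in control cells (SE 0.10, interval 0.07 to 0.52, 1.22-fold, adjusted p = 0.149). It did so by 0.31 with Hmgn5 siRNA (SE 0.10, adjusted p = 0.154). Neither difference was called. The knockdown difference at 24 h was 0.02.

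Hes1, a Notch-induced repressor that also acts on its own promoter, was not called in any comparison. Its log2 level was 5.28 on all 3 Hmgn5 siRNA arrays, against 5.28, 5.56 and 5.18 in control cells at 24 h and 5.14, 5.30 and 5.35 at 4 h. The knockdown values lay inside both control ranges. Differences were -0.06 for knockdown (SE 0.10) and 0.08 for time, and neither was called.

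Hes5, a Notch target of neural progenitors, was the member whose replicates differed most among themselves. Its log2 levels were 6.40, 5.80 and 6.19 with Hmgn5 siRNA, against 5.86, 5.92 and 6.09 in control cells at 24 h and 6.29, 6.0 and 6.17 at 4 h. The knockdown arrays spanned the whole range of the 24 h controls. The within-group SD was 0.21, larger than that of 90.6% of genes, and the knockdown difference of 0.18 came with an SE of 0.14 (interval -0.15 to 0.50, adjusted p = 0.990). Hes5 alone among the members had a second probe set, at 6.0, 6.31 and 6.21 with Hmgn5 siRNA, against 6.03, 6.07 and 6.03 at 24 h and 6.03, 5.93 and 5.89 at 4 h in control cells. On it the knockdown difference was 0.13 (SE 0.08). Over time the probe sets disagreed in sign, at -0.20 (adjusted p = 0.529) and 0.09 (adjusted p = 0.624), and neither was called.

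Hes6, the family member that opposes Hes1, had log2 levels of 7.49, 7.13 and 7.29 with Hmgn5 siRNA, against 7.28, 7.29 and 7.29 in control cells at 24 h and 7.35, 6.89 and 7.37 at 4 h. The 24 h controls were nearly identical and lay inside the range of both other groups. The lowest value came from control 4 h replicate 2, the array least like the rest. Differences were 0.02 for knockdown and 0.08 for time, neither of them called. The time difference was -0.08 without control 4 h replicate 2 and -0.05 with array weights. Without Hmgn5 siRNA replicate 1 the knockdown difference was -0.08.

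Hey1, a Notch-responsive repressor that pairs with HES proteins, was the most tightly measured member and the only one called in any comparison. Its log2 levels were 7.82, 7.77 and 7.88 with Hmgn5 siRNA, against 7.73, 7.78 and 7.78 in control cells at 24 h and 7.57, 7.57 and 7.58 at 4 h. All 6 arrays at 24 h were above the 3 at 4 h, and both 24 h groups overlapped. The within-group SD was 0.04, smaller than in all but 2.72% of genes. Hmgn5 siRNA cells at 24 h were 0.25 above 4 h controls (SE 0.06, interval 0.13 to 0.38, 1.19-fold, adjusted p = 0.0473). In control cells the time difference was 0.19 (SE 0.06, interval 0.07 to 0.32, 1.14-fold, adjusted p = 0.0934) and was not called. The knockdown difference was 0.06 (SE 0.06, interval -0.06 to 0.18, adjusted p = 0.994). The call against 4 h controls was close to the threshold: it was lost in 15 of 21 alternatives, among them leaving out any 1 array other than control 4 h replicate 2 (adjusted p 0.0717 to 0.147).

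Across the 9 arrays, the genes whose levels followed Hey1 most closely among 13147 were Hlx, a homeobox factor, Mlkl, the pseudokinase of necroptosis, and Slc18a1, a vesicular monoamine transporter. Their Pearson's r with Hey1 was 0.982, 0.976 and 0.973, a description over arrays that share the same 3 groups. Slc18a1 had log2 levels of 9.0, 8.81 and 9.10 with Hmgn5 siRNA, against 8.73, 8.60 and 8.93 in control cells at 24 h and 7.97, 7.87 and 8.03 at 4 h. Like Hey1, Slc18a1 was lowest on the 4 h arrays and overlapped between both 24 h groups. Over time in control cells Hlx rose by 0.35 (adjusted p = 0.0230), Mlkl by 0.41 (adjusted p = 0.0376) and Slc18a1 by 0.80 (adjusted p = 0.00398). Hey1 was picked for its p over time, and these genes for following it on the same arrays. A difference over time was thus favoured by the choice, and their adjusted p-values are no separate evidence for it. Whether these calls hold without single arrays was not tested.

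Heyl, a related Notch target, was lower in Hmgn5 siRNA cells than in control cells on every array at 24 h, with log2 levels of 5.40, 5.50 and 5.53 against 5.65, 5.80 and 5.82. Control cells at 4 h had 5.82, 5.93 and 5.47, so that replicate 3 fell inside the knockdown range. The difference at 24 h was -0.28 (SE 0.11, interval -0.53 to -0.03, unadjusted p = 0.0324) and was not called (adjusted p = 0.926). Over time Heyl differed by 0.02 in control cells (adjusted p = 0.955), and Hmgn5 siRNA cells at 24 h differed from 4 h controls by -0.26 (adjusted p = 0.295). Heyl and Hey1 thus lay on opposite sides of 0 with Hmgn5 siRNA, neither of them past the test.

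**Figure D2:**
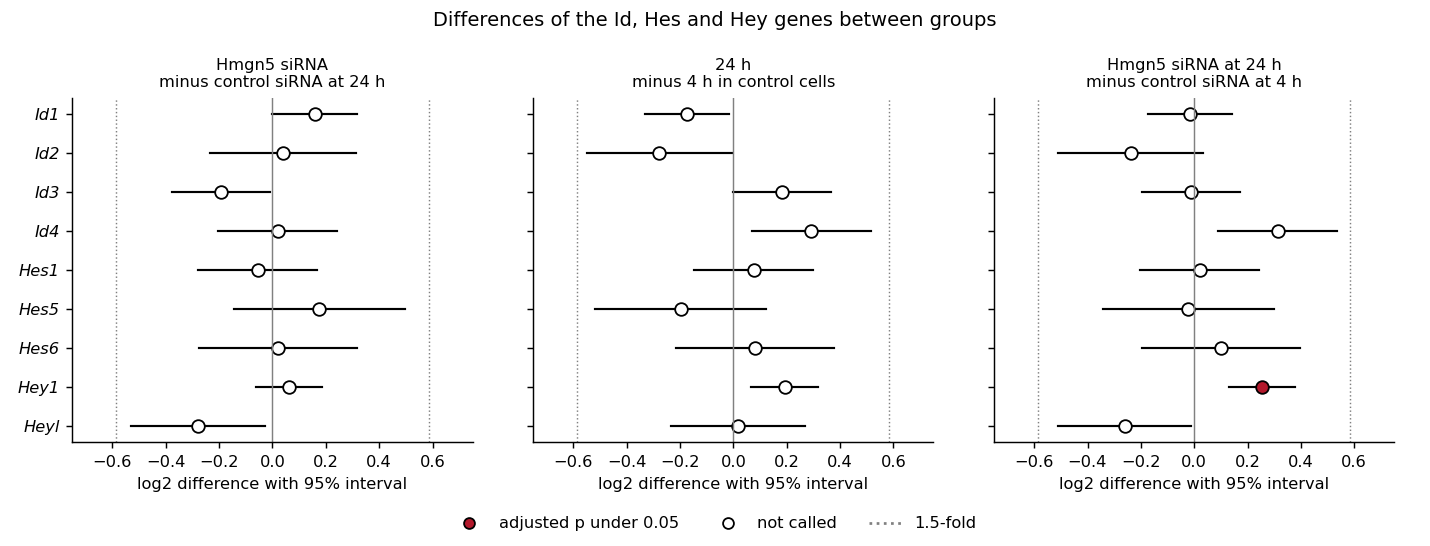
Log2 difference with its 95% interval for the 9 genes in each of the 3 comparisons, a filled red point marking a called gene. Most intervals cross 0, and Hey1 in Hmgn5 siRNA cells at 24 h against 4 h controls is the called point.

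The remaining members of the HES and HEY family and related repressors were 7 genes. Of these Hey2, the close relative of Hey1, fell over time in control cells, where 4.34% of all genes were called. None of the 7 was called at knockdown (median difference 0.02). Hey2 had log2 levels of 7.28, 7.10 and 7.21 with Hmgn5 siRNA and 7.36, 7.37 and 7.04 in control cells at 24 h, against 7.75, 7.80 and 7.68 at 4 h. All 24 h arrays lay below all 4 h arrays. The difference was -0.49 (SE 0.09, adjusted p = 0.0215), which did not pass when control 24 h replicate 1 (adjusted p = 0.0507) or control 4 h replicate 1 (0.0565) was omitted. Nor did it pass in a fit of only the 2 groups (0.0758), without the empirical Bayes step (0.0797) or without both arrays numbered 3 at 24 h (-0.38, adjusted p = 0.0800). Hmgn5 siRNA cells differed from 4 h controls by -0.55 (adjusted p = 0.0191), a call lost without any 1 of the 3 Hmgn5 siRNA arrays or control 4 h replicate 1 (0.0542 to 0.0900). At 24 h Hey1 and Hey2 differed from 4 h controls in opposite directions.

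The factors that Id and Hes proteins act on were not called in any comparison. Of 17 measured proneural and neuronal bHLH activators 0 rose and 0 fell, with medians of -0.03 at knockdown and 0.02 over time, and 1 gene at an unadjusted p under 0.05 in each. Neurod4, a late neuronal bHLH factor, had the smallest p at knockdown, with a log2 level of 3.72 ± 0.01 in Hmgn5 siRNA cells and 3.90 ± 0.06 in control cells (SD, n = 3), a difference of -0.19 (adjusted p = 0.846). Atoh1, a proneural factor of cerebellum and inner ear, differed by 0.20 over time (adjusted p = 0.236). Both genes were dim, with mean log2 levels of Atoh1 from 4.41 to 4.62 over the groups, and background at such levels was not estimated. Hand2, a far brighter gene of this list, differed by -0.15 over time (adjusted p = 0.370). The 3 E proteins, to which Id proteins bind, gave 0 calls too, with 0 at an unadjusted p under 0.05 at knockdown and 1 over time. Tcf3 was higher by 0.14 and Tcf12 by 0.08 with Hmgn5 siRNA (adjusted p = 0.975 and 0.984).

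A list of Groucho corepressors, the family that HES proteins recruit, and their relatives included 2 genes that rose over time among 6 measured. Whether HES proteins recruit each of these was not tested. Of all genes 4.34% were called in that comparison. Tle1 had log2 levels of 6.82, 6.86 and 7.04 with Hmgn5 siRNA and 7.48, 7.27 and 7.31 in control cells at 24 h, against 6.51, 6.35 and 6.50 at 4 h. The knockdown arrays lay between both control groups without touching either. Groups without overlap were found in 12.3% of all genes at knockdown and in 18.9% against 4 h controls. Tle1 rose by 0.90 over time in control cells (SE 0.09, 1.87-fold, adjusted p = 0.00106). The knockdown difference was -0.45 (SE 0.09, adjusted p = 0.337) and was not called. Hmgn5 siRNA cells exceeded 4 h controls by 0.45 (adjusted p = 0.0295), a call lost in 12 of 21 alternatives and without any of 7 single arrays (0.0510 to 0.0981). A second, dim Tle1 probe set gave 0.13 over time (adjusted p = 0.451), so the probe sets disagree in size.

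Tle6, a divergent Groucho relative, was at 6.33, 6.45 and 6.29 with Hmgn5 siRNA and 6.55, 6.64 and 6.48 in control cells at 24 h, against 6.26, 6.16 and 6.24 at 4 h. The knockdown arrays lay below all 24 h controls, a difference of -0.20 that was not called (adjusted p = 0.859). In that comparison 12.3% of all genes had groups that did not overlap. Over time in control cells Tle6 rose by 0.34 (SE 0.07, adjusted p = 0.0267), but leaving out any control 24 h array, control 4 h replicate 3 or Hmgn5 siRNA replicate 1 ended the call (0.0515 to 0.101). So did a fit of only the 2 groups (0.0703), no empirical Bayes step (0.0537) and omitting both arrays numbered 3 at 24 h (0.0727). Tle3 went the other way at knockdown, by 0.27 (adjusted p = 0.433), and was not called. The median of the Groucho list was -0.22 at knockdown and 0.25 over time. An unadjusted p under 0.05 was found for 5 of the 6 in each comparison, against 1164 and 4000 of all 22180 genes. These comparisons share the 24 h control arrays with opposite sign.

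Notch ligands and receptors gave no call. Of 7 ligands and related genes 0 rose and 0 fell in any comparison, with medians of -0.10 at knockdown and 0.10 over time and 0 at an unadjusted p under 0.05 in either. At knockdown 2 of the 7, Jag1 and Dll1, were above 0 and 5 below. Dlk1 and Jag2, with the smallest p there, differed by -0.19 (adjusted p = 0.979) and -0.13 (adjusted p = 0.984). Jag1 differed by 0.12 at knockdown (adjusted p = 0.990) and by 0.19 over time (adjusted p = 0.337), and Dll1 by 0.05 and 0.10. Of the 4 receptors Notch2 was higher with Hmgn5 siRNA by 0.23 (SE 0.06, adjusted p = 0.661), all 3 knockdown arrays lying above the 24 h controls. In 12.3% of all genes the groups of that comparison did not overlap. Notch1 differed by -0.26 over time in control cells (adjusted p = 0.206). Neither passed the test, and 1 of the 4 receptors had an unadjusted p under 0.05 in each of these comparisons.

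Of 26 genes for Notch cleavage, modification and nuclear action, 3 rose over time in control cells and none fell, with a list median of 0.08. In that comparison 4.34% of all genes were called. None of the 26 was called at knockdown (median -0.01), where 2 had an unadjusted p under 0.05, against 1164 of all 22180 genes. Maml2, a Mastermind coactivator of the Notch complex, had log2 levels of 7.86, 7.79 and 7.96 with Hmgn5 siRNA and 7.96, 7.76 and 7.90 in control cells at 24 h, against 6.98, 7.19 and 6.83 at 4 h. Both 24 h groups covered the same range, above every 4 h array. Maml2 rose by 0.87 over time (SE 0.10, 1.83-fold, adjusted p = 0.00232), and the knockdown difference was 0.00 (SE 0.10).

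Aph1b, a subunit of the gamma-secretase that cleaves Notch, was at 7.39, 7.40 and 7.38 with Hmgn5 siRNA and 7.48, 7.68 and 7.53 in control cells at 24 h, against 6.93, 7.01 and 6.96 at 4 h. The knockdown arrays lay between both control groups. Over time in control cells Aph1b rose by 0.60 (SE 0.06, 1.51-fold, adjusted p = 0.00209). The knockdown difference was -0.18 and was not called (adjusted p = 0.926). Dtx1, a Deltex ubiquitin ligase that acts on Notch, was at 8.74, 8.74 and 8.64 with Hmgn5 siRNA and 8.98, 9.01 and 9.02 in control cells at 24 h, against 8.61, 8.45 and 8.59 at 4 h. Its knockdown arrays too lay between both control groups. Over time Dtx1 rose by 0.45 (SE 0.06, 1.37-fold, adjusted p = 0.0062), and its second probe set gave 0.37 (adjusted p = 0.0323). The knockdown difference was -0.30 (SE 0.06, adjusted p = 0.418) and was not called. For Aph1b and Dtx1 alike, the time and knockdown differences share the 24 h control arrays with opposite sign. Groups did not overlap in 12.3% of all genes at knockdown and in 18.9% against 4 h controls. Against 4 h controls, Hmgn5 siRNA cells had higher Maml2 (0.87, adjusted p = 0.00397) and Aph1b (0.42, adjusted p = 0.0128). The Aph1b call was lost without Hmgn5 siRNA replicate 1 or 2 (0.0559 and 0.0581).

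**Figure D3:**
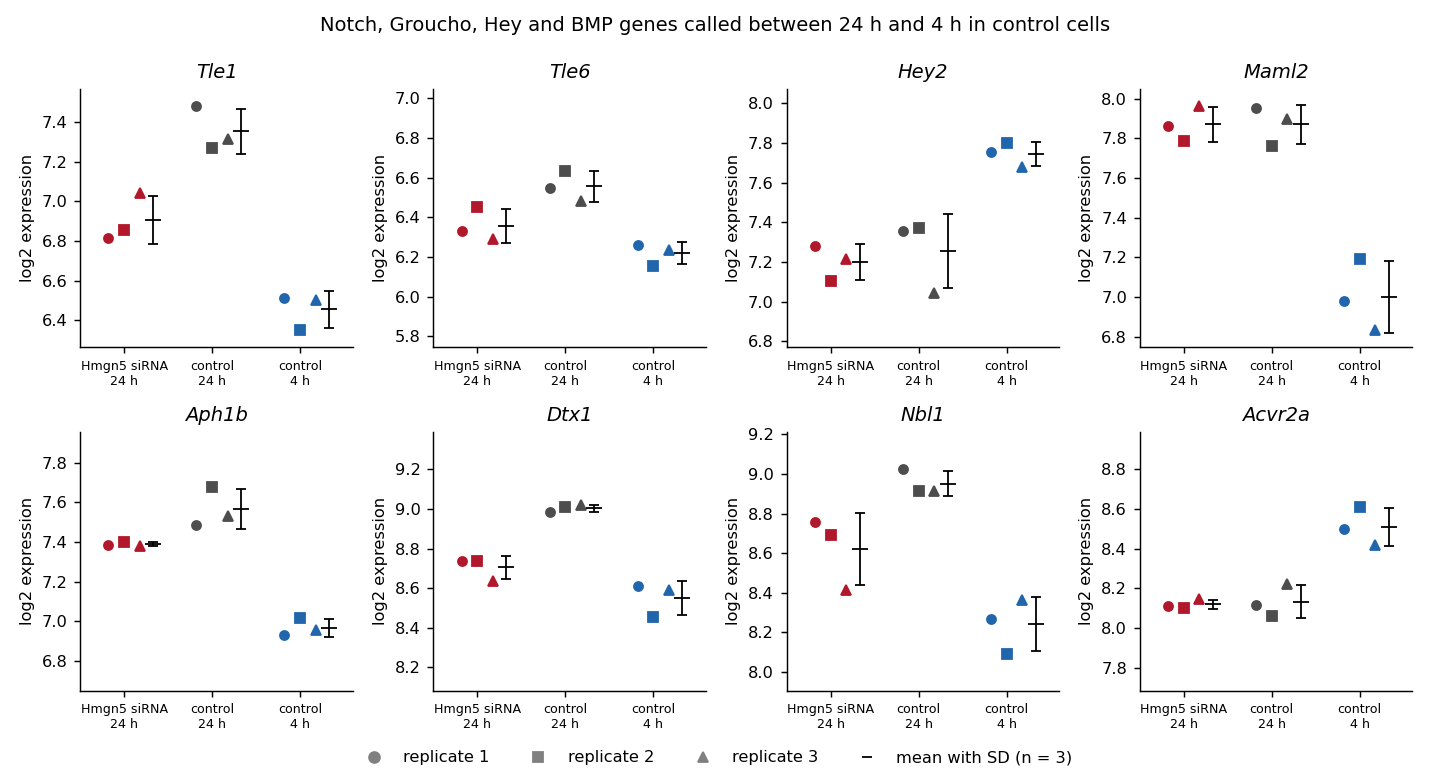
Log2 level on every array of the genes around the Id, Hes and Hey members that were called, with Hmgn5 siRNA (24 h), 24 h controls and 4 h controls from left to right and bars for mean and SD (n = 3). Tle1 with Hmgn5 siRNA lies between both control groups, and Maml2 is alike in both 24 h groups.

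In the BMP pathway upstream of the Id genes, 0 of 8 ligands were called in any comparison, with 0 at an unadjusted p under 0.05 at knockdown and 1 over time. Bmp7, at 10.48 ± 0.02 with Hmgn5 siRNA and 10.50 ± 0.04 in control cells at 24 h (SD, n = 3), differed by -0.02. Over time it differed by 0.18 (adjusted p = 0.160). Of all genes 4.34% were called over time. Of 8 receptors Acvr2a, a type II activin and BMP receptor, fell over time in control cells, with levels of 8.11, 8.10 and 8.14 with Hmgn5 siRNA and 8.12, 8.06 and 8.22 in control cells at 24 h, against 8.50, 8.61 and 8.42 at 4 h. Both 24 h groups overlapped and lay below all 4 h arrays. The time difference was -0.38 (SE 0.07, adjusted p = 0.0179), and it did not pass when control 24 h replicate 1 or 2 was omitted (0.0723 and 0.0735), in a fit of only the 2 groups (0.0732) or without both arrays numbered 3 at 24 h (0.0573). Hmgn5 siRNA cells differed from 4 h controls by -0.39 (adjusted p = 0.0209), which did not pass without any 1 of the Hmgn5 siRNA arrays or control 4 h replicate 1 (0.0525 to 0.0901).

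Of 16 BMP transducers and inhibitors Nbl1, a secreted BMP antagonist of the DAN family, rose over time, where 4.34% of all genes were called. Its levels were 8.76, 8.69 and 8.41 with Hmgn5 siRNA and 9.02, 8.92 and 8.91 in control cells at 24 h, against 8.27, 8.09 and 8.37 at 4 h. The knockdown arrays lay above the 4 h controls and below the 24 h controls. The rise was 0.71 (SE 0.10, 1.63-fold, adjusted p = 0.0069), and the knockdown difference was -0.33 (SE 0.10, adjusted p = 0.798). Both differences share the 24 h control arrays, with opposite sign. At knockdown 12.3% of all genes, and against 4 h controls 18.9%, had groups that did not overlap. Fst, which encodes the activin and BMP antagonist follistatin, differed by 0.12 at knockdown and -0.22 over time, neither called. The list medians were 0.00 at knockdown and -0.00 over time.

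Of 11 measured markers of sympathetic neuroblastoma 2 rose over time and 0 fell, and of 13 neuronal markers 2 rose and 1 fell, where 4.34% of all genes were called. The list medians were 0.12 and 0.13. In control cells Dbh and Th, enzymes of noradrenaline synthesis, rose by 0.80 (adjusted p = 0.00534) and 0.53 (adjusted p = 0.0188), and the dendritic protein gene Map2 by 0.62 (adjusted p = 0.00279). Dcx, a microtubule protein of young neurons, fell, with a difference of -0.99 (adjusted p = 0.00459). Dbh did not pass without both arrays numbered 3 at 24 h (0.0505), and Th no longer passed once any single 24 h control array was omitted (0.0585 to 0.0774). Syt1, a synaptic vesicle protein, rose by 0.36 (adjusted p = 0.0165), a call lost without control 24 h replicate 1 or 3 or control 4 h replicate 3 (0.0537 to 0.0697). Syt1 also failed in a fit of only the 2 groups (0.0659) and without both arrays numbered 3 (0.0968), and Th without the empirical Bayes step (0.0745). A 1.5-fold minimum ended each call over time among the pathway and marker genes named. Among the others Slc18a2, a vesicular monoamine transporter, differed by 0.19 (adjusted p = 0.189) and Snap25, a synaptic fusion protein, by -0.02 (adjusted p = 0.926). None of the 5 called genes was called at knockdown, where Dbh differed by -0.42 (adjusted p = 0.595) and Map2 by -0.12 (adjusted p = 0.984).

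**Figure D4:**
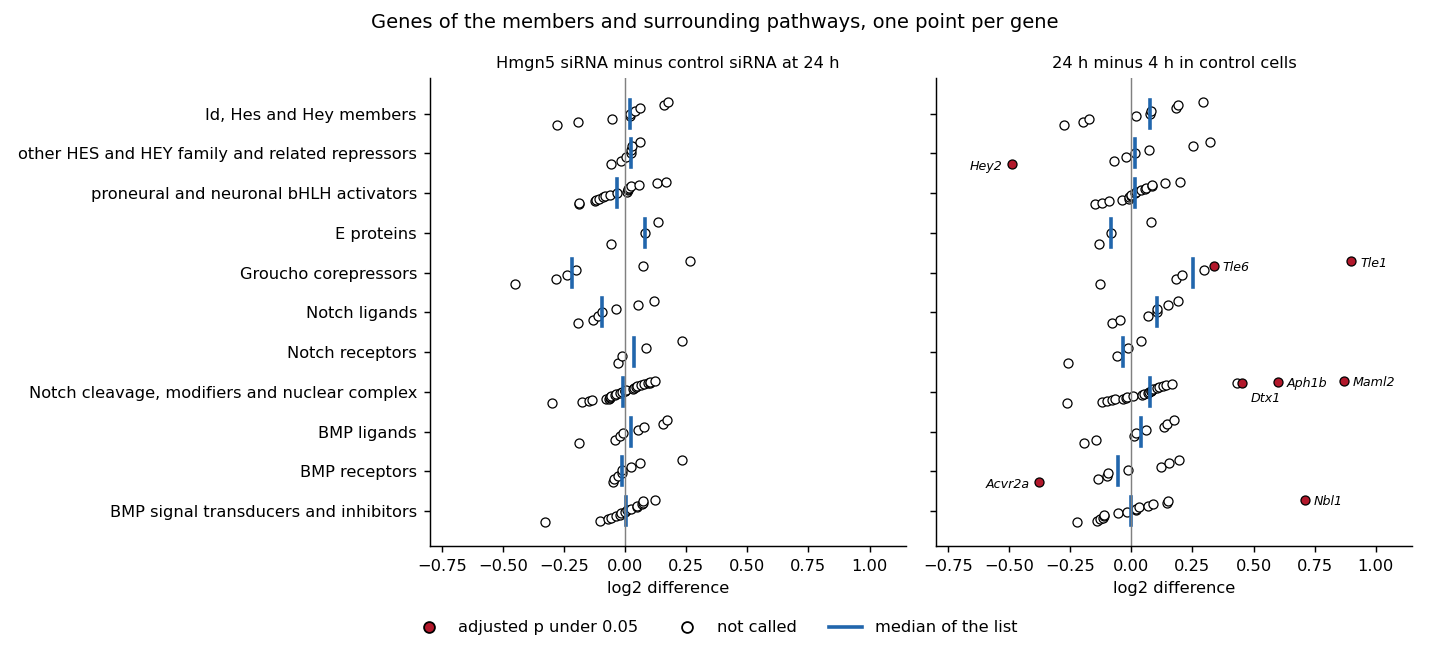
Log2 differences of all measured genes of the members and of surrounding pathway lists at knockdown (left) and over time in control cells (right), with called genes in red and list medians as blue bars. No point is red for the knockdown at 24 h, and the red points over time include Tle1, Maml2, Aph1b and Hey2.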

How the data were processed

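Total RNA of 9 N1E-115 samples was amplified, converted to sense-strand cDNA and hybridised to Affymetrix whole-transcript arrays, per the labels' protocols. The authors deposited log2 values, 1 per probe set and array, made with oligo and RMA per the submitters' processing notes, with versions not given in the sources used here. RMA corrects background, normalizes by quantiles and summarises probes, which hides any shift common to most genes. Values ran from 2.13 to 13.9, and 0 columns were left unmapped. Of 41345 probe sets, 23521 named 1 gene symbol, 1814 several and 16010 none; those naming 1 gave 22180 genes, each by its brightest probe set. Probe sets are given no coordinates, because the array's build is not given in the sources used here; the upstream windows shown carry those of RefSeq's GRCm38.p6.

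Groups came from the sample titles. One limma 3.58.1 fit (R 4.3.3, lmFit and eBayes) took all 9 arrays and gave 3 contrasts, with 6 residual and 3.55 prior degrees of freedom. A gene was called at an adjusted p under 0.05 (Benjamini-Hochberg, all genes). The fit was tried on simulated, independent normal values with added changes. Those lack any link between same-numbered samples, so they cannot show how the p-values behave under such a link. The number of arrays limits the precision.

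The members, and the 17 lists around them (186 of 196 genes measured), were chosen with earlier results of these data known. Named genes are the members, Hmgn5, each list's called genes where 1 to 4 were called, else the 4 with the smallest p, or up to 2 with none called, and the 3 genes most correlated with Hey1. That gene had the smallest p over time among members, none being called; genes in the dimmest 33.3%, other members, and clone, predicted, olfactory, vomeronasal and small RNA symbols were passed over. Alternatives were the replicate block, 2-group fits, other eBayes settings, array weights, a dim-gene filter, cyclic loess, median centring, other probe set rules, a 1.5-fold minimum and leaving out each array. Omitting both arrays numbered 3 at 24 h was added after seeing the data.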

Additional observations from a re-analysis of the deposited data

How the results depend on the processing

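Over 21 alternatives, 15 of 27 member differences kept their sign and 12, none called, took another sign in some. Called in some setting were Hey1 against 4 h controls (adjusted p 0.0206 to 1), Hey1 over time without the empirical Bayes step (0.0379) and Id1 over time with array weights (0.0496). Hey1 and Id1 were then the 1 member rising and the 1 falling over time, where the reported counts are 0. At knockdown 0 members were called in every alternative. The 1 member that rose against 4 h controls became 0 with the replicate block (adjusted p = 0.0792), fits of only 2 groups, a trended robust prior, cyclic loess, median centring (0.0505), the 1.5-fold minimum and omission of both arrays numbered 3, and 0 to 1 when single arrays were left out. The filter on dim genes removed Id3 and Hmgn5.

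Genes called at knockdown, 3 as reported, were 1 with the replicate block, 5 with the trended robust prior, 7 with array weights, and 0 without empirical Bayes, with the 1.5-fold minimum and without both arrays numbered 3. Leaving out single arrays gave 0 to 2. Over time, 963 became 280 with only 2 groups, 480 without empirical Bayes, 1685 with array weights, 3 with the 1.5-fold minimum, 266 without both arrays numbered 3 and 310 to 1238 without single arrays. Against 4 h controls, 569 became 113, 255, 1226, 1 and 114 in the same settings and 165 to 784 without single arrays. The Hmgn5 difference of -1.21 kept its size without empirical Bayes (-1.21, adjusted p = 0.106) and with the 1.5-fold minimum (-1.21, 0.559), was -1.23 without both arrays numbered 3 (0.200), and -1.24 to -1.18 without single arrays. Fits of 2 groups or with arrays left out use fewer samples; the cause of the other shifts was not tested.

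Same-numbered samples' deviations correlated at 0.184, 0.0891 and 0.285 in the knockdown comparison and at 0.0382 to 0.0624 over time. What the numbers mark is not stated, and they were not taken to pair samples. Each of the 6 samples in either comparison correlated best with its own number, a hint from the data and not the design. Both samples of a number share the same correlation, so the 6 are not separate observations. Low signal limits Hmgn5, Id3, Neurod4 and Atoh1, whose background was not estimated.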
